A study of Homo sapiens with 24 samples.

Results

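The response of PLC/PRF/5 cells to TGFb was measured with and without galunisertib, and the quantity described here is how far the inhibitor altered that response, gene by gene. PLC/PRF/5 is an established line of hepatocellular carcinoma, the main cancer of liver cells. The members are the 12 arrays of this line among 24 in the series, and the other 12 are from SNU-449, a second established hepatocellular carcinoma line. There were 4 groups of 3 independent cultures each: untreated control, TGFb1 at 1 ng/mL, galunisertib (LY2157299) at 10 µM, and both agents together. All 4 groups were starved of serum overnight and collected after 16 h, so the controls carried the starvation too. RNA of whole cultures of 1 line was hybridised to 1-colour Agilent arrays, and a smaller share of cells with a transcript cannot be told apart from less of it per cell. The interaction was taken as the change from galunisertib alone to both agents, minus the change from control to TGFb alone. A negative interaction is a TGFb change that was lower with galunisertib than without it, and a positive one a change that was higher. Levels are background-corrected intensities on the log2 scale, set against the 75th percentile of each array, with signals under 5.7% of that percentile set to a floor of -4.13.

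TGFb is a secreted cytokine that brings its type II receptor together with ALK5, the type I receptor encoded by TGFBR1, whose kinase phosphorylates SMAD2 and SMAD3. These join SMAD4 and enter the nucleus, where they switch genes on or off together with other transcription factors and induce their own brakes, such as SMAD7, SKIL and PMEPA1. Galunisertib is an ATP-competitive inhibitor of the ALK5 kinase. In liver cells TGFb is known for restraining growth, for lowering hepatocyte functions and, in carcinoma, for invasive and mesenchymal traits.

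The 75th percentile of intensity ran from 145 to 261 over the 12 arrays, and 42.8% to 49.6% of the probes were well above background. The dimmest array was control replicate 1. Of 30 hepatocyte markers, 23 were well above background on every PLC/PRF/5 array and 5 on none, and of 24 epithelial markers, 17 were above on every array and 3 on none. Among 15 markers of blood, endothelial and stromal cells, 5 were above background on every array, 5 on none and 2 had no probe. Each slide held 1 replicate of every group, with control and galunisertib in its first row and the TGFb groups in its second. The PLC/PRF/5 groups without galunisertib lay in the first column of each slide, and those with it in the second. Slide row and TGFb treatment therefore cannot be told apart in a comparison of TGFb with control. Neither can slide column and galunisertib in a comparison of galunisertib with control. An offset between rows or between columns cancels in the interaction, whereas an offset particular to 1 position on the slide does not.

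The interaction passed a fold change above 2 and a P below 0.001, termed called here, for 199 of 16682 genes (1.19%). It was negative for 121 of them (0.725% of the genes tested) and positive for 78 (0.468%), so that 39.2% of the calls were positive. That share was 50.3% with each array divided by its median, 25.7% with the percentile taken over probes above background on all PLC/PRF/5 arrays, and 24% without scaling. Each of the 121 and of the 78 kept its sign on all 3 slides when the 4 arrays of a slide were taken alone. Over all genes tested, 8675 of 16682 did so. The calls were made on these same slides, so that agreement is no test. Among the 121 genes with a negative interaction, TGFb alone raised 77 to a call and 114 passed for TGFb at an adjusted p under 0.05, and the median change was 1.22 without galunisertib and -0.13 with it. Among the 78 with a positive interaction, TGFb alone lowered 27 to a call and 73 passed the adjusted threshold for TGFb, with a median of -0.9 without galunisertib and 0.32 with it. The interaction is built from the same TGFb arrays, so these medians describe the genes and are no test. At the limit, UACA, AQP3 and ACAN had a P of 0.000842, 0.000879 and 0.000914, while STEAP1, PMEPA1 and lnc-RMI1-6 missed it at 0.00101, 0.00102 and 0.00103.

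SPP1, SKIL and SPTSSB show the forms the interaction took. SPP1 encodes osteopontin, a secreted phosphoprotein that binds integrins and CD44. Its log2 level in replicates 1, 2 and 3 was -2.26, -2.13 and -2.4 in control cultures and 0.38, -0.17 and 0 with TGFb. With galunisertib alone it was -2.4, -2.17 and -2.23, and with both agents -1.32, -1.69 and -1.47. The TGFb arrays lay above all others, the arrays with both agents lay between, and the control and galunisertib arrays overlapped. TGFb raised SPP1 5.03-fold, and under galunisertib 1.71-fold with an adjusted p of 0.0176 by limma, which was no call. The interaction was -1.55 with a standard error of 0.21 (limma, adjusted p = 0.00222), and by slide it was -1.55, -1.47 and -1.64. Without replicate 3 of every group it was -1.51 and no longer a call. The probe was well above background on 2 of the 3 galunisertib arrays and on every array of the other groups.

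SKIL encodes SnoN, a co-repressor that binds SMAD complexes and is itself induced by them. Its level was -0.5, -0.53 and -0.28 in control cultures and 1.13, 1.21 and 1.24 with TGFb. Under galunisertib it was -1.04, -1.24 and -0.9, and with both agents -0.83, -0.99 and -0.76. The TGFb arrays again stood alone at the top, and the arrays with both agents overlapped those with galunisertib and lay below every control. The rise was 3.1-fold without the inhibitor and 0.2 on the log2 scale with it (limma, adjusted p = 0.233), for an interaction of -1.43 with a standard error of 0.15 (limma, adjusted p = 0.00063). Galunisertib without added TGFb changed SKIL by -0.63 on the log2 scale (limma, adjusted p = 0.0096).

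SPTSSB, a small activating subunit of serine palmitoyltransferase, the enzyme that starts sphingolipid synthesis, moved the other way. It lay at 0.1, 0.03 and 0.02 in control cultures and at -2.28, -1.92 and -2.18 with TGFb. With galunisertib it was -0.07, 0.01 and 0.16, and with both agents 0.02, 0.16 and 0.01. The 3 TGFb arrays were below the 9 others, which overlapped. The TGFb level was 4.53-fold lower than control, the change under galunisertib was 0.03 (limma, adjusted p = 0.872), and the interaction was 2.21 with a standard error of 0.14 (limma, adjusted p = 3.16e-05). SKIL and SPTSSB kept their call in all 31 alternative analyses.

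**Figure D1:**
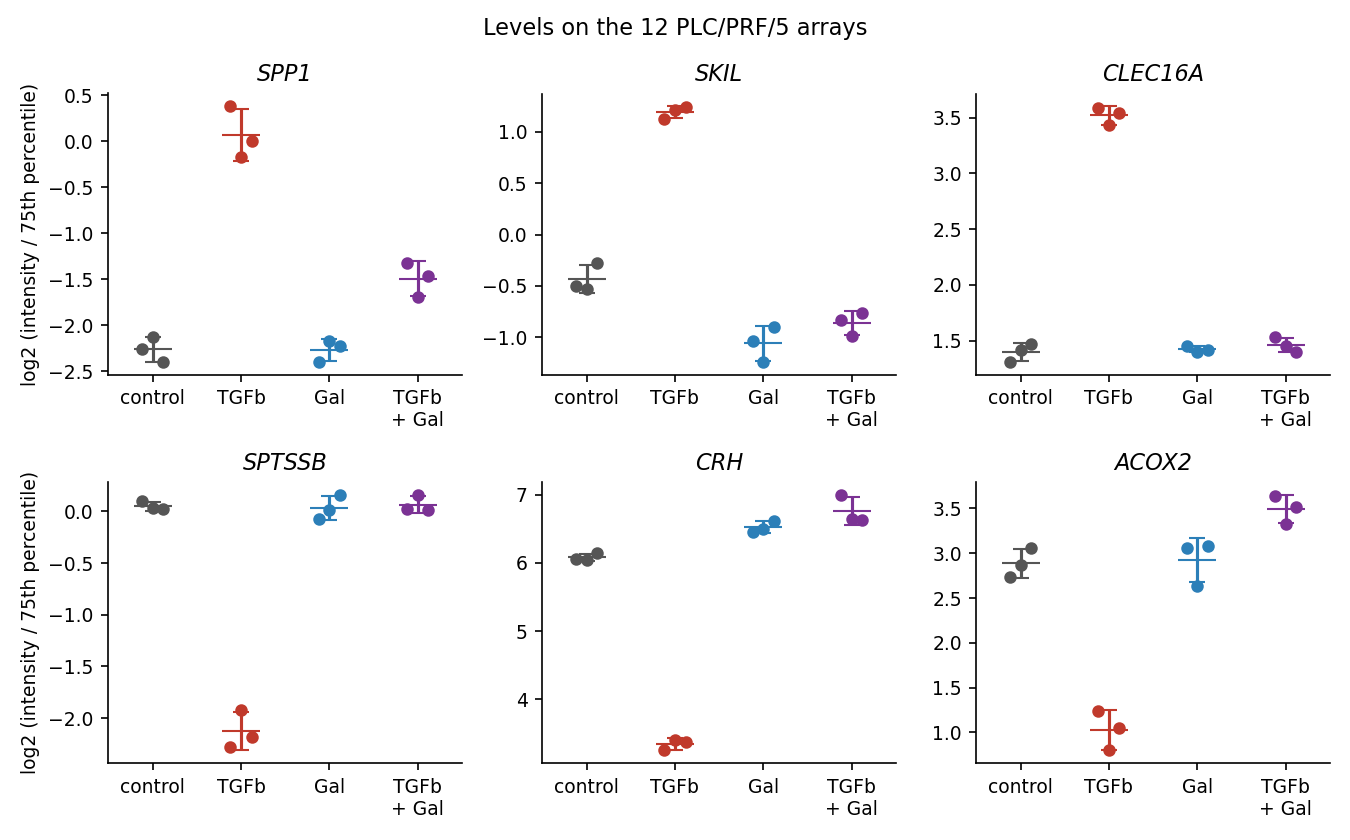
Log2 level of 6 genes on each of the 12 PLC/PRF/5 arrays by treatment group, where points are arrays and bars the mean ± SD of 3 replicates. The TGFb arrays stand apart from the other 3 groups in every panel, above them for SPP1, SKIL and CLEC16A and below them for SPTSSB, CRH and ACOX2.

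The 250 bases before the start of these 3 genes are shown because SMAD complexes bind the short motif CAGAC or its complement GTCTG, printed in capitals. They are RefSeq sequences in build GRCh38.p14, on the strand of each gene, at chr4:87975464-87975713 (plus strand) for SPP1, chr3:170357465-170357714 (plus) for SKIL and chr3:161371518-161371767 (minus) for SPTSSB.
SPP1: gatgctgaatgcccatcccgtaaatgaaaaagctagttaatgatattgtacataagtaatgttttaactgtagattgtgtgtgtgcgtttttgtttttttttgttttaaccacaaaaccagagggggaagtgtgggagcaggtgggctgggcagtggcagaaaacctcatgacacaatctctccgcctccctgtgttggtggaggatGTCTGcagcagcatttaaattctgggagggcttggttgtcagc
SKIL: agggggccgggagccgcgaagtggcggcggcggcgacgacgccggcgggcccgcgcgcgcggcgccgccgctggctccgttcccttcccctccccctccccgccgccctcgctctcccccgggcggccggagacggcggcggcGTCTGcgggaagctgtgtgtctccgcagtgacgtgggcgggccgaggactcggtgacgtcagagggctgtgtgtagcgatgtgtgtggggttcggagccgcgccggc
SPTSSB: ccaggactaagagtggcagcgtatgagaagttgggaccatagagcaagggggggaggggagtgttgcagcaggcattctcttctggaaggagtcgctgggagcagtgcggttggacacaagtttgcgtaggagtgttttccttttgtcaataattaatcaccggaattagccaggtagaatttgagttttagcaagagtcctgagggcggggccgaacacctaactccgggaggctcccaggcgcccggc
SPP1 held 1 match, at base 208 of the 250, SKIL held 1, at base 144, and SPTSSB held none. On both strands, 37.8% of 27305 RefSeq promoters of this length held the motif, as did 36.4% of the 11377 tested genes with a promoter in the table. The share was 33.3% for the negative interactions (27 of 81 with a promoter) and 48.3% for the positive ones (29 of 60). The AP-1 motif TGANTCA, which is its own complement, was in 6.6% of all promoters, 4.14% of those of the tested genes, 7 of the 81 (8.64%) and 1 of the 60 (1.67%). The palindrome GTCTAGAC, which shares its last 4 letters with CAGAC without holding it, was in 0.176% of all promoters, 0.158% of those of the tested genes and in 0 of either group. These matches describe letters in a window and are not measured binding sites.

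The largest negative interaction with a RefSeq name, -3.3, was that of LBH, a transcription cofactor of limb and heart development. LBH was at -1.04, -0.54 and -0.91 with TGFb and at the floor of -4.13 on the 9 arrays of the other groups. Its probe was well above background on the 3 TGFb arrays alone, so only bounds can be given. The LBH signal was at least 8.47-fold higher with TGFb than in control cultures and at least 9.83-fold higher than with both agents. A bound uses, on each dim array, the weakest signal well above background or the floor, whichever is higher. A second LBH probe, above background on 3 arrays, had an interaction of -1.12, and the remaining one was above background on no array. On the values normalized by the authors, the LBH interaction was -1.23 and no call. In all, 10 of the 121 genes were above background on the TGFb arrays alone, and 88 on all 12 arrays.

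CLEC16A, a membrane-associated regulator of autophagy and mitophagy, was above background on all 12 arrays. Control cultures gave 1.31, 1.42 and 1.47, and TGFb gave 3.59, 3.43 and 3.54. Galunisertib gave 1.45, 1.4 and 1.42, and both agents gave 1.53, 1.45 and 1.4. Apart from the TGFb arrays, the groups overlapped. The rise was 4.34-fold, 0.04 on the log2 scale was measured under galunisertib, and the interaction was -2.08 with a standard error of 0.1 (limma, adjusted p = 4.84e-06), against -2.03 for a second probe of the gene.

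FURIN, the protease that cleaves the TGFb precursor among many others, had levels of 0.12, 0.09 and 0.12 in control and 1.84, 1.87 and 1.94 with TGFb, against -0.22, -0.41 and -0.17 with galunisertib and -0.24, -0.39 and -0.54 with both. Its interaction was -1.9 (SE 0.13, limma adjusted p = 4.07e-05). The arrays with galunisertib, alone or with TGFb, overlapped each other and lay below the controls. MACROH2A2, a variant of histone H2A, gave 0.24, 0.36 and 0.3 in control and 2.41, 2.28 and 2.27 with TGFb, then -0.55, -0.75 and -0.2 with galunisertib and -0.4, -0.28 and -0.49 with both, for an interaction of -1.91. BMF, a pro-apoptotic BH3-only protein of the BCL2 family, gave -0.05, 0.21 and 0.24 in control and 2.42, 2.23 and 2.35 with TGFb, then -0.83, -1.55 and -0.73 with galunisertib and -0.79, -1.03 and -0.89 with both, for an interaction of -2.07. In both genes the control arrays lay above every galunisertib array, and galunisertib alone changed the level by -0.8 (MACROH2A2, limma adjusted p = 0.00663) and -1.17 (BMF, limma adjusted p = 0.007). BMF was no call without replicate 1 of every group (-1.89) or on the authors' values (-3.35).

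PRRT2, a synaptic membrane protein, had a TGFb change that turned sign under galunisertib. It was at -0.28, -0.17 and -0.23 in control and 1.81, 1.38 and 1.55 with TGFb, and at -1.45, -1.1 and -1.19 with galunisertib and -2.16, -2.06 and -2.11 with both. TGFb alone was highest and both agents together lowest, with no overlap among the 4 groups. The TGFb change was 1.81 without galunisertib and -0.87 with it (limma, adjusted p = 0.00699), for an interaction of -2.68. Its spot lies in the outer 5% of the array's rows or columns, a position taken up further on. Under galunisertib, 24 of the 121 passed the adjusted threshold in the opposite direction, as falls, and 2 in the same direction, as rises, where 4.96% of all genes tested fell and 3.6% rose at that threshold. That comparison is part of the interaction, so the counts describe the genes.

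In the other named negative interactions, arrays outside the TGFb group lay near the floor, which limits the size. They were -2.81 for SYT12, a synaptotagmin, -2.11 for PIK3IP1, an inhibitor of phosphoinositide 3-kinase, -2.06 for KLF7, a Krüppel-like transcription factor, -1.94 for SLC2A5, the fructose transporter GLUT5, and -1.9 for NRP2, a co-receptor of semaphorins and VEGF. PIK3IP1 was above background on 0 of the arrays with both agents, and its signal with TGFb was at least 5.33-fold higher than there. Without replicate 1 of every group, PIK3IP1 (-1.92) and KLF7 (-1.96) were no calls, and NRP2 was none without replicate 2 (-1.82) or 3 (-1.64). With normexp background correction the interactions were -0.72 for PIK3IP1, -1 for KLF7, -0.83 for SLC2A5 and -0.62 for NRP2, and none of these 4 was a call. Other probes gave -0.63 for SLC2A5, and -0.96 and -2.15 for NRP2.

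**Figure D2:**
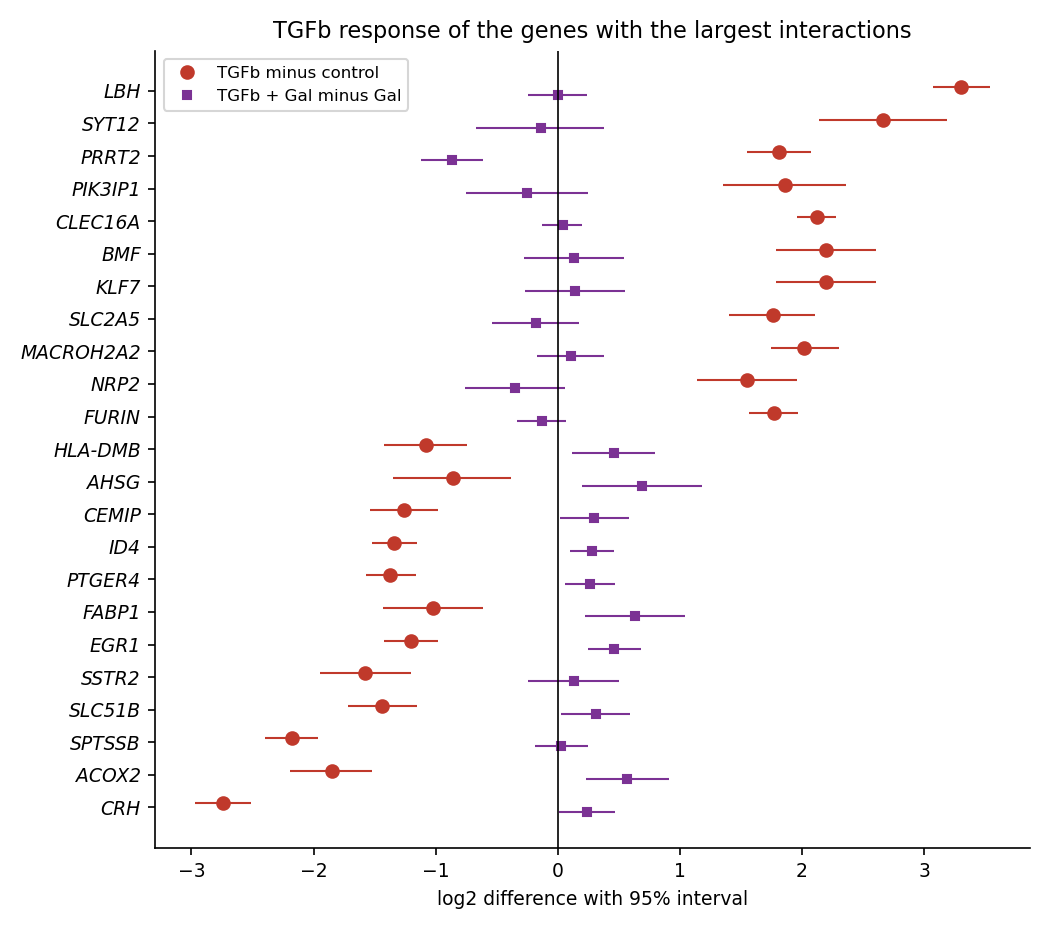
Log2 difference of TGFb from control (circles) and of TGFb with galunisertib from galunisertib alone (squares), with 95% intervals from the limma fit of 12 arrays, for 23 genes with the largest called interactions. The circles run from -2.74 for CRH to 3.3 for LBH, and the squares from -0.87 for PRRT2 to 0.69 for AHSG.

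Positive interactions were led by CRH, the corticotropin-releasing hormone. CRH was at 6.06, 6.05 and 6.14 in control and 3.25, 3.4 and 3.38 with TGFb. Galunisertib gave 6.45, 6.5 and 6.62 and both agents 7, 6.65 and 6.63. The TGFb arrays were far below the rest, and every array with galunisertib lay above every control. The TGFb level was 6.68-fold lower than control, the change under galunisertib was 0.24 (limma, adjusted p = 0.152), and the interaction was 2.98 with a standard error of 0.15 (limma, adjusted p = 4.84e-06).

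Among the 12 largest were 3 genes of bile acid and lipid handling, picked out after their values were seen. ACOX2, a peroxisomal oxidase that shortens bile acid precursors and branched fatty acids, was at 2.73, 2.87 and 3.06 in control and 1.24, 0.8 and 1.05 with TGFb, and at 3.06, 2.64 and 3.08 with galunisertib and 3.64, 3.33 and 3.52 with both. The arrays with both agents lay above all others, and the TGFb arrays below. The change went from -1.85 to 0.57 under galunisertib (limma, adjusted p = 0.0461), for an interaction of 2.43 with a standard error of 0.22. SLC51B, a subunit of the basolateral bile acid exporter, had an interaction of 1.75 at an outer spot, and FABP1, the liver fatty acid binding protein, had 1.65. FABP1 was no call without replicate 1 (1.74) or replicate 2 (1.53) of every group.

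EGR1, an immediate early transcription factor, was at 2.64, 2.51 and 2.8 in control and 1.36, 1.54 and 1.45 with TGFb. Galunisertib gave 3.32, 3.29 and 3.32, and both agents 3.95, 3.65 and 3.73. The 4 groups did not overlap and ran, from low to high, TGFb, control, galunisertib and both. The TGFb change was -1.2 without galunisertib and 0.46 with it (limma, adjusted p = 0.0238), for an interaction of 1.66 with a standard error of 0.14. CEMIP, which takes part in hyaluronan breakdown, went from -0.42, -0.56 and -0.37 in control to -1.74, -1.64 and -1.75 with TGFb, and from 0.58, 0.27 and 0.41 with galunisertib to 1.01, 0.65 and 0.5 with both. Its interaction was 1.56 and, with normexp correction, 0.99 and no call. Galunisertib alone changed EGR1 by 0.66 (limma, adjusted p = 0.0055) and CEMIP by 0.87 (limma, adjusted p = 0.00516).

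The remaining positive interactions were 1.71 for SSTR2, a somatostatin receptor, 1.63 for PTGER4, the EP4 receptor of prostaglandin E2, 1.61 for ID4, an inhibitor of basic helix-loop-helix factors, 1.55 for AHSG, the plasma protein fetuin-A, and 1.54 for HLA-DMB, which loads peptides onto MHC class II. In all 5 the TGFb arrays lay below every array of the other groups. AHSG was the least settled of the 23 genes plotted by the size of their interaction: with a standard error of 0.31 and an outer spot, it lost its call in 12 of 30 alternatives. SSTR2 was no call with normexp correction (0.65), on the authors' values (0.79) or over the mean of its probes (1.05), its other probe giving 0.4. HLA-DMB, at an outer spot as well, was no call without replicate 1 of every group (1.34). Under galunisertib, 17 of the 78 passed the adjusted threshold in the direction opposite to their TGFb change, and 2 in the same direction, beside 8.55% of all genes tested in either direction.

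Seen from the TGFb response, 184 genes were called for TGFb against control (1.1% of 16682), with 129 rises (0.773%) and 55 falls (0.33%). Under galunisertib the same comparison called 49 (0.294%), with 34 rises (0.204%) and 15 falls (0.0899%). The interaction was called for 77 of the 129 rises and 27 of the 55 falls, and it reached an adjusted p below 0.05 for 102 and 36. For all 104 genes called in both, the change under galunisertib stayed within 2-fold, from -0.87 to 0.78. That change is part of the interaction, so its small size follows largely from the choice of these genes. Of the 184, 17 were also called under galunisertib in the same direction. Over the 129 rises the median change was 1.34 without and 0.15 with galunisertib, and the median share left was 10.2% (interquartile range -0.109% to 27.9%), with 17%, 12.1% and 3.9% on slides 1, 2 and 3. Over the 55 falls the medians were -1.16 and -0.1, and the share left was 9.16% (-11.6% to 50.1%), with 4.57%, 10.1% and 15.5% by slide. These genes were chosen for a large TGFb change, so the shares are descriptions. Without scaling of the arrays the shares were 25.8% and 28.4%, for the falls alone the share was 56.2% with normexp correction, and it ran from -1.39% without control replicate 1 to 20.2% without control replicate 3.

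**Figure D3:**
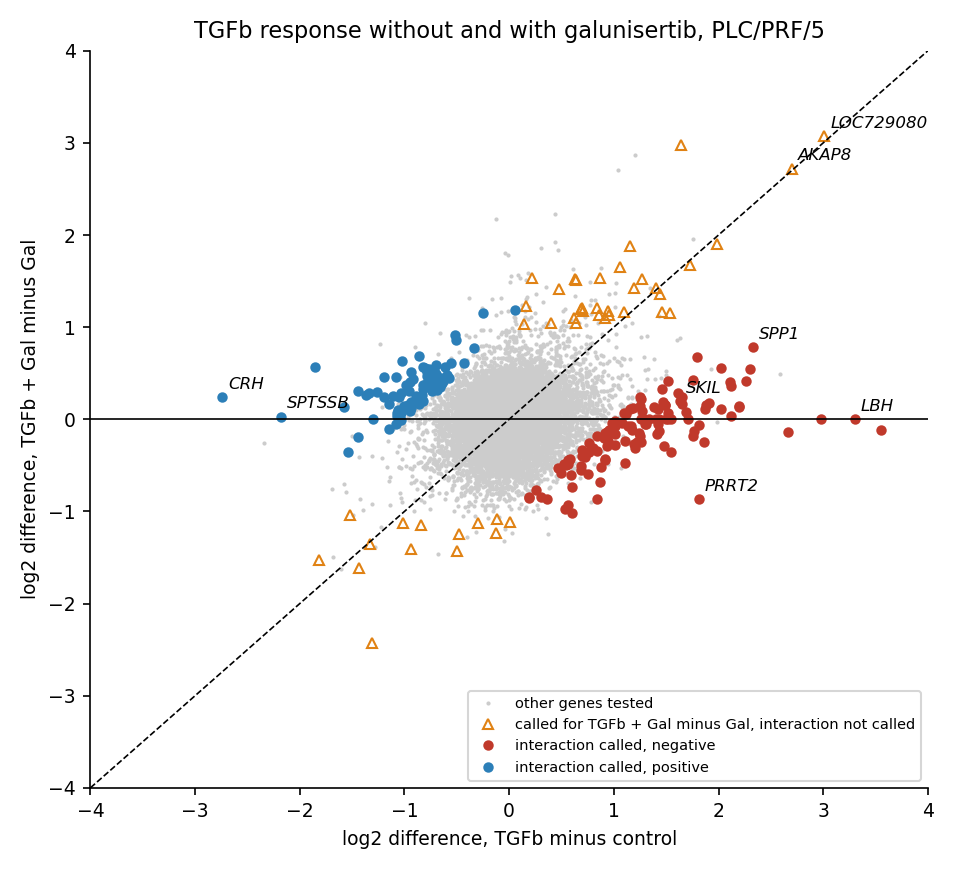
Log2 change of each of 16682 genes from control to TGFb (x axis) against its change from galunisertib to TGFb with galunisertib (y axis), with the 121 negative and 78 positive interactions coloured. On the diagonal the response is the same with and without the inhibitor, and 120 of the negative and 76 of the positive interactions lie within 2-fold on the y axis. The change on the y axis is itself part of the interaction.

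The genes with a called TGFb change under galunisertib had their spots mostly at the rim of the array. Of the 49 genes called under galunisertib, 42 (85.7%) have their spot in the outer 5% of rows or columns of the array, as do 16 of the 17 called in the same direction in both TGFb comparisons (94.1%). The exception, named after its values were seen, was PABPC3, a poly(A)-binding protein, with changes of 1.1 and 1.16. These 17 are 17 of the 184 and of the 49. The share was 18.3% over all genes tested (3053), 33.2% over the 184 and 18.1% over the 199 called for the interaction. Among the 8 largest changes under galunisertib with a RefSeq name, every spot was an outer one. AKAP8, an anchoring protein for protein kinase A, was at -0.19, 0.02 and 0.29 in control, 2.75, 2.72 and 2.76 with TGFb, 0.39, 0.83 and -0.38 with galunisertib and 3.11, 2.99 and 2.9 with both. The 6 arrays of the second slide row lay far above the 6 of the first row, and the interaction was 0.02 (limma, adjusted p = 0.983). LOC729080 (interaction 0.06), NR2F6 (-0.08, with 2 arrays left out for outlier spots) and REV1 (-0.06) had the same form in their group means. On slides 1, 2 and 3 the interaction was -0.21, -0.54 and 0.81 for AKAP8, -1.69, 0.82 and 1.05 for LOC729080 and 0.19, -0.81 and 0.44 for REV1. For NR2F6 it could be taken on slide 1 alone, at -0.84. RSBN1L (0.59), LINC00989 (0.73), ANP32A-IT1 (-0.18) and GACAT1 (-1.12) completed the 8, and none of the 8 interactions reached an adjusted p below 0.05. Among interior spots the median share left was 7.59% over 91 rises and -4.87% over 32 falls, and 2 genes in either direction kept more than 50%. Among outer spots it was 33.2% over 38 rises and 50.3% over 23 falls, with 17 and 12 genes above 50%. The TGFb change at outer spots cannot be told apart from the slide row.

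Several of the 8 largest TGFb rises and 8 largest falls were outer spots as well. IGF2, an insulin-like growth factor, was at -3.58, -3.97 and -4.09 in control, -1.77, -1.4 and -1.57 with TGFb, -4.13, -3.8 and -3.87 with galunisertib and -3.41, -3.68 and -3.04 with both. It was above background on 3 TGFb arrays, on 2 with both agents and on 0 of the others, so that TGFb was at least 4.81-fold above control, and the interaction was -1.75 (limma, adjusted p = 0.00378). DEPP1, a FOXO target involved in autophagy, had a TGFb change of -1.56 and an interaction of 0.78 (limma, adjusted p = 0.145). SLC25A25, a mitochondrial carrier of ATP-Mg and phosphate, had -1.58 and 0.88 (limma, adjusted p = 0.183). PRR36 had -1.82 and 0.29, with control replicate 1 at 4.84 against 3.77 and 3.78 for the other controls, and its second probe had a TGFb change of 0.23.

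**Figure D4:**
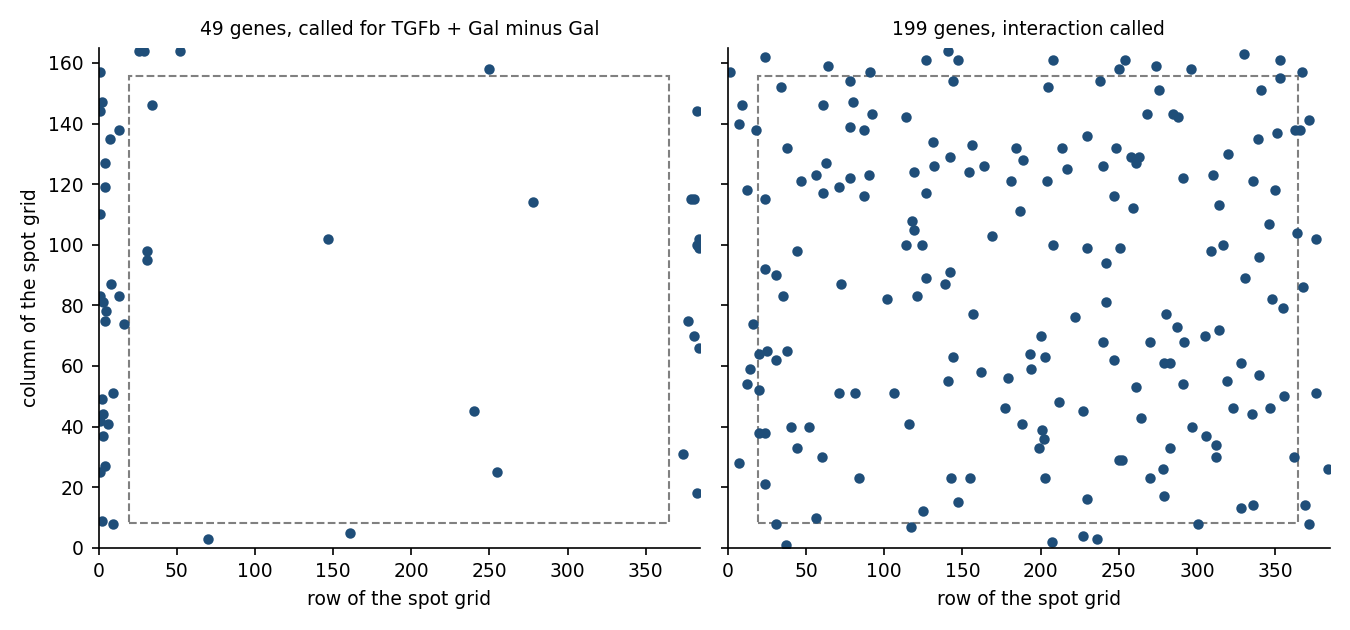
Position of each gene's spot on the array grid (columns and rows, in spots) for the 49 genes called for TGFb under galunisertib and the 199 called for the interaction, with a dashed line at the outer 5%. In the first set 42 of 49 spots are outside the line, in the second 36 of 199.

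Gene lists were read against the interaction of all genes tested, of which 4.47% passed at an adjusted p under 0.05 with a positive sign and 4.29% with a negative one, at a median of 0.05. Counts in the lists are given at that threshold, adjusted over all 16682 genes. They depend on the scaling and on all 3 replicates, as does the background: the positive and negative shares of all genes were 0.336% and 0.42% with each array divided by its median, 0.054% and 0.234% without scaling, and 0.337% and 0.621%, 0.16% and 0.267%, and 0.0294% and 0.0764% without replicate 1, 2 or 3 of every group. The feedback regulators of the pathway had the largest share among the 14 lists with all 12 arrays: 6 of the 13 measured members were negative (46.2%) and 0 positive, with a list median of -0.54. SMAD7, the inhibitory SMAD, was at 1.08, 0.94 and 1.06 in control and 1.73, 1.84 and 1.9 with TGFb, and at 0.54, 0.71 and 0.52 with galunisertib and 0.47, 0.3 and 0.07 with both. Its TGFb arrays lay above and the arrays with both agents below all others, and the interaction was -1.1, at an outer spot. FSTL3 (-1.23) and FST (-0.58), 2 secreted antagonists of activin, SKIL (-1.43), PPM1A (-0.39), a phosphatase of SMADs, and PMEPA1 were the other 5. PMEPA1, which keeps SMADs from their receptor, was above background on 0 of the control arrays, 3 of the TGFb arrays, 1 of the galunisertib arrays and 3 of those with both, and was at least 6.02-fold higher with TGFb than in control. Its interaction of -2.1 with a standard error of 0.47 was no call at a P of 0.00102, from an outer spot. A second, interior probe gave -2.34. For PPM1A a second probe gave -0.01. The 13 members ran from -2.1 to -0.08, and the list median from -0.63 to -0.38 over 32 analyses. The negative count was 3 with each array divided by its median, 1 without scaling, and 2, 1 and 0 without replicate 1, 2 or 3 of every group.

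Ligands, receptors and SMADs held no called interaction. Among 9 measured ligands and latency proteins, TGFB1 itself (-0.9) and LTBP3 (-0.65), which holds latent TGFb in the matrix, reached an adjusted p below 0.05. TGFB1 was at 0.83, 0.16 and 0.81 in control, 1.33, 1.32 and 1.38 with TGFb, 0.98, 0.78 and 0.84 with galunisertib and 0.74, 0.6 and 0.77 with both, so the TGFb arrays lay above the 9 others. Among 16 receptors and SMADs, SMAD3 (-0.74) and BMPR2 (-0.85), a type II receptor for BMPs, reached it and the median was 0.05. No member of either list was called for TGFb under galunisertib.

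Genes known to respond to TGFb in other cells split both ways, with 7 positive and 7 negative among 31 measured (22.6% each). The positive and negative counts were 3 and 0 with each array divided by its median, 1 and 0 without scaling, 2 and 2 without replicate 1 of every group, 2 and 0 without replicate 2, and 1 and 0 without replicate 3. The negative ones were PDGFB (-1.11), a platelet-derived growth factor chain, JUNB (-1.06), an AP-1 subunit, the kinase NUAK1 (-1.01), TPM1 (-1), TAGLN (-0.78) and GADD45B (-0.78), and TGFBI (-0.71), a matrix protein. TAGLN and TPM1 bind actin, and the change from control to TGFb was 0.3 for TAGLN (limma, adjusted p = 0.134) and 1.11 for TPM1. The positive ones held all 4 ID genes, inhibitors of basic helix-loop-helix factors and classical targets of BMP signalling: ID4 (1.61), ID3 (1.17), ID1 (1.14) and ID2 (0.66). ID1 was at 6.91, 7.07 and 7.16 in control and 5.93, 6.09 and 6.1 with TGFb, and at 6.88, 7.16 and 7.41 with galunisertib and 7.41, 7.22 and 7.24 with both. ID3 was at 4.5, 4.48 and 4.58 in control and 2.93, 3.06 and 2.97 with TGFb, and at 4.42, 4.33 and 4.54 with galunisertib and 4.1, 4.06 and 4.05 with both. ID1 with both agents overlapped galunisertib alone, while ID3 with both agents lay below control and galunisertib without overlap, with a change of -0.36 left (limma, adjusted p = 0.021). The ID3 spot is an outer one, where such a change cannot be told apart from the slide row. The remaining positive members were CCN2 (1.18), the connective tissue growth factor, SNAI1 (0.52), a repressor of E-cadherin, and GADD45A (0.45), with TGFb changes of -0.82, -0.57 and -0.57. CCN2 and SNAI1 are known as genes that TGFb induces in many cells, and here they were lower with it.

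Hepatocyte genes were positive in 8 of 25 measured (32%) and negative in 0, with a median of 0.28. The housekeeping list had a similar median of 0.24, with 1 positive of 15 (6.67%). ALB, serum albumin, was at 0.6, 0.34 and 0.52 in control and -0.21, -0.63 and -0.5 with TGFb, and at -0.64, -0.39 and -0.4 with galunisertib and 0.31, -0.22 and 0.02 with both. The control arrays lay above all others, and TGFb and galunisertib alone overlapped. The TGFb change was -0.94 and the interaction 1.45, while galunisertib alone changed ALB by -0.97 (limma, adjusted p = 0.00636). TTR, the thyroxine carrier transthyretin, had an interaction of 0.96 and a change of -0.69 with galunisertib alone. Its TGFb change was -0.26 without galunisertib and 0.7 with it. PCK1, a gluconeogenic enzyme, had an interaction of 1.03 and a change of -0.88 with galunisertib alone. The TGFb change of PCK1 was -0.66 without galunisertib and 0.37 with it. APOA2 (1.04) and APOB (0.9), apolipoproteins of HDL and LDL, had changes of -0.01 and -0.14 with galunisertib alone. AHSG (1.55), FGG (0.7), a fibrinogen chain, and CPS1 (1.85), the first enzyme of the urea cycle, made up the 8. CPS1 was no call, with a galunisertib array at 3.09 against 4.06 and 4.62 for the others. The TGFb change of CPS1 was -0.8 without galunisertib and 1.05 with it. The median change of the hepatocyte list was -0.43 with galunisertib alone, -0.18 with TGFb alone and 0.2 with TGFb under galunisertib. The summed level of the list ran from 1300 to 1600 in control, 1210 to 1470 with TGFb, 1210 to 1260 with galunisertib and 1240 to 1430 with both. The count was 0 without replicate 3 of every group or without scaling, where the medians were 0.45 and 0.23, and it was 3 with each array divided by its median, 2 without replicate 1 and 1 without replicate 2.

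Genes of the AP-1 and MAPK feedback list were positive in 8 of 23 measured (34.8%) and negative in 1 (4.35%), at a median of 0.4. Besides EGR1 they were DUSP6 (1.13), DUSP5 (1.11) and DUSP4 (0.64), phosphatases that switch off MAP kinases, SPRY4 (0.79) and SPRY1 (0.59), inhibitors of receptor tyrosine kinase signalling, FOS (0.92) and ETV5 (0.84). DUSP6 was at 4.05, 4.32 and 4.18 in control and 3.14, 3.17 and 3.33 with TGFb, and at 5.03, 5.04 and 5.17 with galunisertib and 5.17, 5.32 and 5.22 with both. TGFb was lowest, control in between, and the arrays with galunisertib, alone or combined, were highest. Galunisertib alone changed DUSP6 by 0.9 (limma, adjusted p = 0.000877), DUSP5 by 1.39 (limma, adjusted p = 0.00235), SPRY4 by 1.13 (limma, adjusted p = 0.00316) and SPRY1 by 0.75 (limma, adjusted p = 0.000665). The median change of the list was 0.51 with galunisertib alone, -0.22 with TGFb alone and 0.03 with TGFb under galunisertib. JUNB was the negative member. SPRY4 and DUSP6 have outer spots, and the second SPRY4 probe gave -0.03. Over 32 analyses the median of the list ran from 0.32 to 0.48, and the positive count was 0 without replicate 3 of every group, 1 without replicate 2 or without scaling, and 2 without replicate 1 or with each array divided by its median.

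The NF-kB list had 5 negative members of 18 (27.8%) and 0 positive, with a median of -0.22: LTB (-1.28), lymphotoxin beta, TNFAIP2 (-1.06), TNFAIP3 (-0.99), the deubiquitinase A20, TRAF1 (-0.81) and NFKB2 (-0.77). LTB was at 1.19, 0.88 and 1.23 in control, 2.58, 2.77 and 2.35 with TGFb, 0.82, 0.54 and 0.76 with galunisertib and 0.92, 0.89 and 0.89 with both. TNFAIP3 was at -0.29, -0.48 and -0.32 in control, 0.49, 0.69 and 0.75 with TGFb, -0.37, -0.58 and -0.33 with galunisertib and -0.35, -0.48 and -0.38 with both. In both genes the TGFb arrays lay above the 9 others, and the arrays with both agents overlapped the controls. NFKB2 differed in form, with TGFb changes of 0.06 without galunisertib and -0.71 with it. With each array divided by its median in place of the 75th percentile, without scaling, and without replicate 2 or replicate 3 of every group, the negative count was 0, and without replicate 1 it was 2.

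Other lists were close to the background share or rested on 1 gene. In the sphingolipid list of 27, SPTSSB (2.21) was positive and CERS4 (-0.62), a ceramide synthase, negative, and in the list of osteopontin, its relatives and its receptors SPP1 alone of 6 passed. Epithelial genes had CLDN1 (0.82) and KRT8 (-0.69) of 18, and a second KRT8 probe gave 0.07. Mesenchymal genes had LOXL2 (-0.64), a lysyl oxidase that crosslinks collagen, of 13, and 0 were called. Of 25 proliferation genes, MYC (1.29), with a control level of 2.28, 2.41 and 2.49 and a TGFb level of 1.48, 1.75 and 1.62, and MCM3 (0.49) were positive. For housekeeping genes the count was 1 of 15, HPRT1 (0.44). Their list median was 0.24, and it ran from 0.06 to 0.32 over 32 analyses. For the markers of other cell types the count was 0 of 6. The summed level of these markers ran from 3.82 to 4.49 in control, 4.43 to 4.66 with TGFb, 2.71 to 3.28 with galunisertib and 2.84 to 3.33 with both, and its part in the results was not tested.

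**Figure D5:**
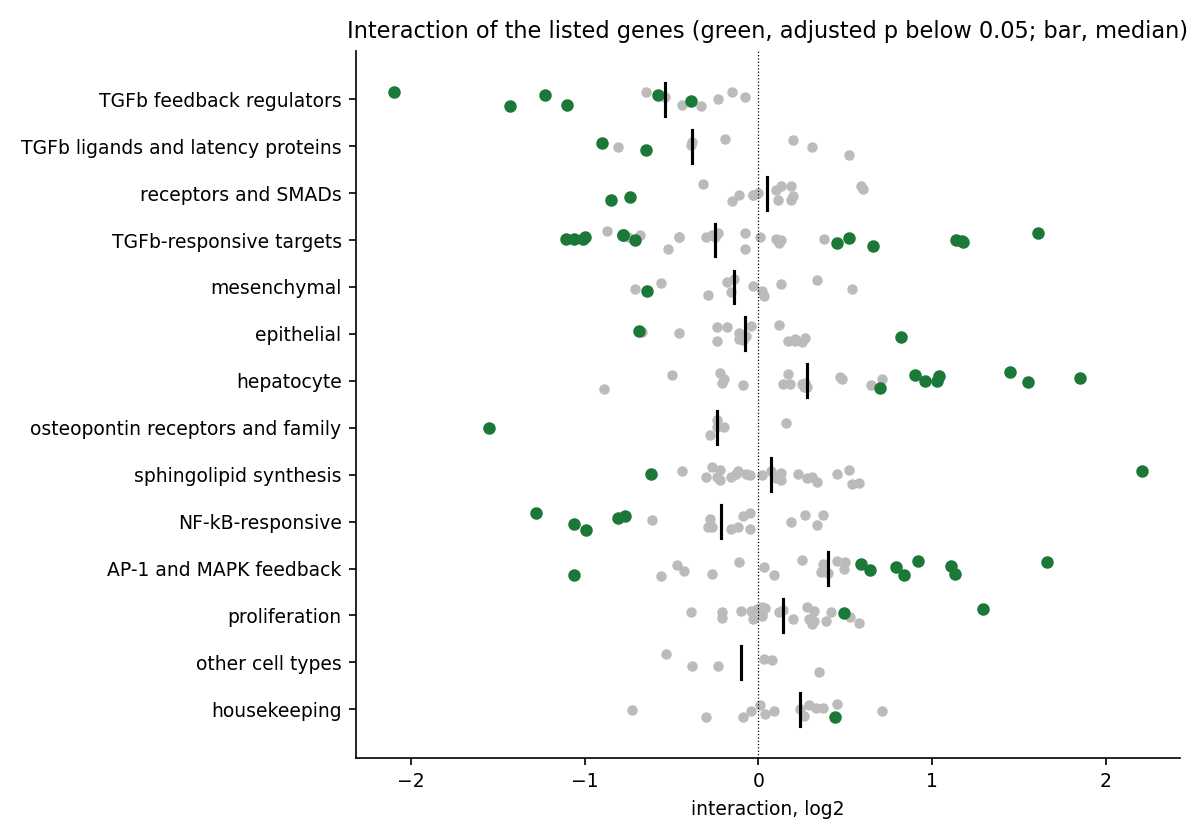
Interaction on the log2 scale for each measured member of the 14 gene lists, with list medians. Every feedback regulator lies below 0, with a list median of -0.54. The hepatocyte list, the housekeeping list and the AP-1 and MAPK list have medians of 0.28, 0.24 and 0.4.

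Galunisertib without added TGFb called 57 genes (0.342%) against control, a comparison in which slide column and galunisertib cannot be told apart. Of the 121 negative interactions, 18 were lower and 4 higher with galunisertib alone at an adjusted p below 0.05, and of the 78 positive ones, 17 were higher and 5 lower. Over all genes tested, 5.41% passed at that threshold, 3.66% higher and 1.75% lower. The control arrays and the galunisertib arrays enter both this comparison and the interaction.

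The interaction was set against that of SNU-449 in 1 fit of all 24 arrays. The difference between the lines was called for 428 of 17900 genes (2.39%), 219 with a higher value in PLC/PRF/5 and 209 with a lower one. Of the 428, 215 were well above background on all 24 arrays, 58 on no SNU-449 array and 70 on no PLC/PRF/5 array, and in 9 the interaction was called in both lines with opposite signs. SPP1 was at 0.55, 0.9 and 0.82 in SNU-449 control cultures, 0.12, 0.38 and 0.44 with TGFb, 0.91, 0.68 and 0.83 with galunisertib and 0.99, 0.83 and 0.65 with both. Its TGFb arrays were lower than the others there, where those of PLC/PRF/5 were higher, and the line difference was -2.01 (limma, adjusted p = 0.000257). SKIL was at -0.77, -0.7 and -0.57 in SNU-449 control cultures and 0.18, 0.23 and 0.35 with TGFb, and at -4.13, -2.92 and -2.86 with galunisertib and -0.87, -1.18 and -1.61 with both. In SNU-449 the groups did not overlap and the TGFb difference was present with the inhibitor too, from a lower starting level, which gave an interaction of 1.15 against -1.43 in PLC/PRF/5. The -4.13 of galunisertib replicate 1 is the floor, which limits the size of the SNU-449 value. SPTSSB was at the floor of -4.13 on all 12 SNU-449 arrays, as was CRH, so neither gene gave a measured interaction in that line to compare with.

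The 5 largest differences between the lines were those of SNAI1, PMEPA1, RIPOR3, PRRT2 and JAG1. SNAI1 was at -0.64, -0.79 and -0.6 in PLC/PRF/5 control cultures, -1.24, -1.19 and -1.32 with TGFb, -0.14, -0.25 and -0.32 with galunisertib and -0.2, -0.34 and -0.33 with both. In SNU-449 it was at -1.63, -1.85 and -1.81, 1.59, 1.66 and 1.67, -2.26, -1.94 and -2.29, and -1.85, -2.04 and -2.17 in the same order. TGFb arrays were thus the lowest of the 4 groups in PLC/PRF/5 and the highest in SNU-449, and the interactions of 0.52 and -3.26 differed by 3.78 (limma, adjusted p = 8.89e-10). JAG1, a Notch ligand, had interactions of 0.2 and -3.15, RIPOR3 of -0.17 and 3.37 at an outer spot, and PRRT2 of -2.68 and 0.75, also at an outer spot. PMEPA1 had -2.34 and 1.38 from its interior probe, which was above background on 3 of the 12 PLC/PRF/5 arrays and on all 12 of SNU-449.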

How the data were processed

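Gene expression was measured on 24 one-colour (Cy3) Agilent arrays of 62976 spots, of which 12 hold PLC/PRF/5 RNA. The authors scanned each array with Agilent Feature Extraction 10.7.3.1, and the deposited files hold spot intensity, from which the processed signal had been background-subtracted and spatially detrended within the array but not normalized between arrays. A further deposited table holds log2 values that the authors had normalized between arrays and centred per probe with GeneSpring, and it served only as an alternative. The design of the array refers to build hg19.

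For the present fits, processed intensities were set relative to the 75th percentile of the array, floored at 5.7% of that percentile (the weakest signal well above background, as a median of the 24 arrays) and taken to log2. Control spots and outlier spots (111 to 216 per array) were left out, 0 spots were saturated, and spots of a probe were averaged. Of 58201 probes, 31104 were named through RefSeq and 10719 through LNCipedia, and 16378 stayed unnamed. A probe was tested if well above background on all arrays of at least 1 group, and the brightest such probe stood for its gene. Precision is limited by having 3 arrays in a group.

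The 12 arrays were fitted with a mean for each group in limma 3.58.1 (R 4.3.3), with eBayes moderation, and p-values were adjusted by Benjamini-Hochberg over all genes of a comparison. Calls required more than a 2-fold change together with P below 0.001 before adjustment. The cultures were independent experiments according to the study's methods. On simulated data for 16653 genes, the interaction was called for 44%, 86%, 92% and 98% of genes changed by 1, 1.5, 2 and 3 on the log2 scale, with 5 false calls. The changes were put in the TGFb group alone. The simulated noise was normal and independent between arrays, without slide effects, position effects or a floor. These figures check the fit and are not error rates of the real arrays. Genes are named by rule: SPP1, SKIL and SPTSSB; the 12 largest called interactions of either sign with the same sign on all slides; list members with an adjusted p below 0.05; the 8 largest TGFb rises and falls; the 8 largest changes called under galunisertib, all with a RefSeq name; and the 5 largest line differences. One gene that these rules name is not reported here. The experiment, the members and the lists were chosen with earlier results of these data known. Alternatives were other scalings, normexp with an offset of 50 (on the median spot and background intensity, the mean not being a column of these files), other floors, filters and probe summaries, spots without the outer 5%, the replicate number as a block and leaving out arrays.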

Additional observations from a re-analysis of the deposited data

Results flagged for a closer look

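For 23 of the named genes the interaction differed between PLC/PRF/5 and SNU-449 by the test of the difference itself, in 1 limma fit of all 24 arrays. It was lower in PLC/PRF/5 for PMEPA1 (-3.72), RIPOR3 (-3.54), PRRT2 (-3.43), LBH (-3.02), KLF7 (-2.88), SYT12 (-2.81), NRP2 (-2.62), SKIL (-2.58), SPP1 (-2.01), CLEC16A (-1.94), SLC2A5 (-1.94) and BMF (-1.7). It was higher for SNAI1 (3.78), JAG1 (3.34), CRH (2.98), SPTSSB (2.21), SSTR2 (1.87), SLC51B (1.75), EGR1 (1.72), FABP1 (1.65), CEMIP (1.56), AHSG (1.55) and PTGER4 (1.13). SYT12, SLC2A5, CRH, SPTSSB, SLC51B, FABP1, CEMIP and AHSG were at the floor and not well above background on all 12 SNU-449 arrays, so for these 8 the value is that of PLC/PRF/5 set against an undetected probe, and no interaction was measured in SNU-449. LBH and the PMEPA1 probe used here were above background on 3 of the 12 PLC/PRF/5 arrays. SKIL was above background on 11 of the 12 SNU-449 arrays and at the floor on 1. SSTR2 and EGR1 had SNU-449 interactions of -0.16 and -0.06, and BMF and CLEC16A of -0.37 and -0.15. KLF7 and NRP2 had 0.82 and 0.72 there, with the sign turned against PLC/PRF/5, and PTGER4 had 0.5 with the same sign. Over all genes tested, the line difference was called for 428 of 17900 (2.39%). SNAI1, PMEPA1, RIPOR3, PRRT2 and JAG1 were the 5 largest called differences by choice. The rest, apart from SPP1, SKIL and SPTSSB, were named for a large PLC/PRF/5 interaction, which is part of the difference. The 23 genes are therefore a description and no test.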

How the results depend on the processing

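Counts are of called genes, and for TGFb under galunisertib the percent of the genes tested. At an adjusted p below 0.05 with any fold, the interaction gave 1462 genes in place of 199, TGFb 2254 in place of 184, TGFb under galunisertib 8.55% in place of 0.294%, galunisertib 903 in place of 57 and the line difference 1301 in place of 428. Without scaling they were 100, 331, 0.863%, 66 and 205 in that order, and the median TGFb change of all genes moved from -0.035 to 0.21. With normexp they were 89, 99, 0.384%, 15 and 205. Dividing by the array median gave 0.641% for TGFb under galunisertib and 244 for the line difference, and a median interaction of 0.13 in place of 0.049. Without outer spots TGFb under galunisertib gave 0.0559%, which is 8 genes. The line difference gave 283 on the authors' values and 225 with probes above background on all arrays.

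The share left of the rises (10.2%) was 16.8% on the authors' values, 19.9% with median scaling and 25.8% without scaling. That of the falls (9.16%) was 28.4% without scaling, 56.2% with normexp and -3.74% without outer spots. Leaving out arrays gave 136 to 225 interactions, 163 to 197 TGFb calls, 0.232% to 0.454% under galunisertib (0.454% without galunisertib replicate 3), 47 to 84 for galunisertib and 266 to 552 line differences (266 without replicate 2). The share left ran from 7.85% to 14.4% for rises and from -1.39% to 20.2% for falls, where it was 0.0117% without TGFb replicate 3, 2.99% without replicate 2 and 0.699% without replicate 3.

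With the replicate number as a block the interaction gave 199 calls, 185 of them shared, TGFb gave 195, TGFb under galunisertib 0.33%, galunisertib 57 and the line difference 422, and the shares left were 10.6% and 11%. CCN2 (1.18), DUSP5 (1.11) and MYC (1.29) were then no calls, and PCK1 (1.03) became one. The number marks the slide, while cultures grown together are not named in the sources used here. Same-numbered arrays correlated between -0.08 and 0.36 in their deviations from group means, above 0.1 at all 3 numbers for 2 of 6 pairs of groups, and 9 of 12 arrays correlated best with their own number, which is a hint from the data.

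Of 2933 values of 96 results on named genes, 2674 kept direction and side of the threshold, 173 lost the call, 81 gained it and 5 turned sign. KRT8 interaction was 0.07 and SPRY4 interaction -0.03 without outer spots, where another probe stood for the gene. PRR36 TGFb minus control was -1.82, and 0.23 without outer spots and with 24 arrays in 1 fit. Leaving out arrays it ran from -2.09 to 0.21, the latter without control replicate 1, and its second probe gave 0.23. The percentile over probes above background on all PLC/PRF/5 arrays was not run for the line difference. Slide row limits every comparison of TGFb with control, and slide column every comparison of galunisertib with control. The floor limits the size for genes near background.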
